A study of Mus musculus with 6 samples.

Results

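Emp1, Emp3 and Pmp22 are 3 genes of a family of small membrane proteins that cross the membrane several times and share a fold with the claudins of tight junctions. They were taken by symbol from a table of 15443 genes, and all 3 had values and passed the filter on low values. They were chosen by their normalized counts in control and midkine libraries, which were known when the group was made, so the differences between those groups are given as a description, without a test. Marrow of C57BL/6J mice, an inbred laboratory strain with the wild-type genotype, was cultured for 3 days with FLT3LG at 50 ng/ml. FLT3LG is the cytokine that drives dendritic cell growth from marrow progenitors, and both groups received it. The control group had nothing further (replicates 1, 2 and 4), and the midkine group had recombinant human midkine, a secreted heparin-binding growth factor, at 10 ng/ml throughout (replicates 3, 4 and 5). Nothing in the labels ties a replicate to a mouse or a culture of its own, so p-values and errors measure only the spread between these libraries, which may be technical.

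PMP22 (peripheral myelin protein) is known as a constituent of the compact myelin that Schwann cells wrap around peripheral nerve axons, and a change in its gene dose causes an inherited neuropathy. It was also found as a growth arrest-specific gene, Gas3, which rises in fibroblasts that stop dividing. EMP1 and EMP3 (epithelial membrane proteins) are its relatives, found in many tissues, and the family has been linked to cell adhesion, membrane blebbing and the ATP-gated channel P2X7.

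The genes lie apart. Per GENCODE M21 on GRCm38, Emp1 spans bases 135362545 to 135383173 of chromosome 6 on the plus strand. Emp3 is compact, from 45918023 to 45921404 of chromosome 7 on the minus strand, and Pmp22 spans 63128982 to 63159547 of chromosome 11 on the plus strand. All 3 are protein-coding, and no other gene annotated in that release overlaps them on either strand. The release and strand setting behind the authors' counts were not given, so other reads counted with theirs were not checked. The annotation gives 6 transcripts for Emp1, 5 for Emp3 and 5 for Pmp22. The libraries count 1 fragment near the 3′ end of each transcript and cannot tell apart transcripts that start at different sites.

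The bases before the annotated starts are shown because Emp1 and Pmp22 differed between the groups while the Emp3 values overlapped. RefSeq (GRCm38.p6) gave start windows for 3 of the 3 genes, 8 in all, each with 250 bases before and 50 after the start. Bases within an annotated exon are left out, and capitals mark matches to the motifs listed after the sequences. The Emp1 stretch lies inside the annotated gene, not before it, because 1 GENCODE transcript of Emp1 starts earlier, at 135362545. The stretch before the second Pmp22 start likewise lies inside its gene, which starts at 63128982.
Emp1, first RefSeq start, chr6:135362708-135362903, plus strand: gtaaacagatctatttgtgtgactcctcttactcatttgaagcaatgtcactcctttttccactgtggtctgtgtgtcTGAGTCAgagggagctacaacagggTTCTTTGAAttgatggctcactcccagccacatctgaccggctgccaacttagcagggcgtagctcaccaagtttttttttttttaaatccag
Emp3, first RefSeq start, chr7:45921427-45921676, minus strand: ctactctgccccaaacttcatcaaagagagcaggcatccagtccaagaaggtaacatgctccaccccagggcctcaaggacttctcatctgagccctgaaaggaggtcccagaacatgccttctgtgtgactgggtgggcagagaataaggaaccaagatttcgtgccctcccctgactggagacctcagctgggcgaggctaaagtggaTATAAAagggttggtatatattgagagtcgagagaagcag
Pmp22, first RefSeq start, chr11:63128732-63128981, plus strand: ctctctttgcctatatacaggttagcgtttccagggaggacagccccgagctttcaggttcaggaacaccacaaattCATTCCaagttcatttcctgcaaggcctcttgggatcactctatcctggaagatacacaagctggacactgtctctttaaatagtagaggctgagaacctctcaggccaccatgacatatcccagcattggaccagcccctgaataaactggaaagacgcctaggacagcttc
Pmp22, second RefSeq start, chr11:63131207-63131456, plus strand: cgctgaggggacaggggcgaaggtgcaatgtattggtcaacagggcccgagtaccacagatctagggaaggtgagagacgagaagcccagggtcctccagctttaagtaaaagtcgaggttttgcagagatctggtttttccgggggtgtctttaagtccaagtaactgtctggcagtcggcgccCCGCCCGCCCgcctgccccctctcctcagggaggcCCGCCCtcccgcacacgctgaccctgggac
The 9 motifs were searched on both strands of each 300-base window: AP-1 (TGANTCA), CRE (TGACGTCA), SP/KLF (GGGCGG), EGR (GCGNGGGCG), TEAD (GGAATG), PU.1 (GAGGAAGT), STAT (TTCNNNGAA), the E-box hexamer (CACGTG) and, last, the core promoter motif spelled TATAAA. The first Emp1 window held 2 AP-1 matches, at −145 and −25 from the start, 2 STAT matches, at −120 and −22, and 1 SP/KLF match at 14 bases past the start. The AP-1 and STAT matches nearest the start overlapped each other and an annotated exon, and with the SP/KLF match are not printed. Of 32817 windows over all genes, 7.81% held the AP-1 letters and 8.29% the STAT letters. The first Emp3 window held a TATAAA at −40, as did 13.6% of all windows somewhere in their length. The first Pmp22 window held the TEAD letters, read on the other strand, at −173 (14.7% of windows), and the second held 3 SP/KLF matches, 2 of them overlapping (35.6% of windows). No match to the 9 motifs was found in the second Emp1 window, in the second Emp3 window or in the Pmp22 window that is the third in order, and the last Pmp22 window held only SP/KLF matches. The Pmp22 windows grew richer in G and C from the first start (50.7% GC, 3 CpG) through the second (60.0%, 18) and the third (66.3%, 20) to the last (72.3%, 30). The median window had 52.7% and 7. The first windows of Emp1 (46.7%, 5 CpG) and Emp3 (52.7%, 4) were poorer in CpG than that. These matches describe letters only and were not tested for binding.

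Recovered reads per library ranged from 5985684 to 7233960. Midkine 5 stood apart from the other libraries. Its Pearson correlations with them, across genes on the log2 scale, were 0.921 to 0.941, against 0.966 to 0.985 among the other 5. Mitochondrial ribosomal RNA took 0.377% of its reads, against 4.12 to 6.16% in the others. The calls below are given with all 6 libraries and, where they differ, without midkine 5. Over all 13543 genes tested with limma, 0 (0.0%) passed an adjusted p of 0.05 with all 6 libraries, while 2663 (19.7%) had an unadjusted p under 0.05, 1404 higher with midkine (10.4%) and 1259 lower (9.3%). edgeR called 10 (0.0738%), 6 higher (0.0443%) and 4 lower (0.0295%). DESeq2 called 684 (5.92%), 459 higher (3.97%) and 225 lower (1.95%). Without midkine 5, limma called 2497 (18.4%), 1343 higher (9.92%) and 1154 lower (8.52%), and edgeR called 2508 (18.5%). These shares are the background for the counts below.

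Emp1 and Pmp22 transcripts stood at 3.29 and 2.84 times their control level in the cultures with midkine (ratio of means, n = 3 per group). Emp3, by far the most abundant of the 3, stood at 1.02 times its control level. Values are normalized counts, reads scaled between libraries by the authors.

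Emp1, an epithelial membrane protein known from dividing and differentiating epithelia, had 245, 268 and 191 in control replicates 1, 2 and 4. It had 600, 871 and 848 in midkine replicates 3, 4 and 5. Control 4 was lowest, midkine 4 highest, and the groups did not overlap: the lowest midkine value was 2.24 times the highest control value. The group values were 235 ± 39.3 and 773 ± 150 (SD, n = 3 each here and below). On the log2(normalized count + 1) scale the difference was 1.71 ± 0.205 (SE), and 1.63 ± 0.157 without midkine 5. This was the 32nd largest of 13543 differences in the upward direction.

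Pmp22 had 176, 211 and 198 in the controls and 423, 575 and 665 in midkine 3, 4 and 5. Again every midkine library lay above every control, with the lowest at 2.01 times the highest control. The group values were 195 ± 17.3 and 554 ± 123. The difference was 1.48 ± 0.198 (SE) on the log2 scale and 1.34 ± 0.140 without midkine 5, and ranked 79th from the top. So 2 of the 3 genes had groups that did not overlap, both higher with midkine. That held for 15.5% of all genes tested in this direction and 15.3% in the other, and since the genes were grouped with these values known, nothing is read from the count.

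Emp3, the relative most familiar from blood cells, had 1995, 1719 and 1812 in the controls and 1871, 1802 and 1975 in the midkine libraries. Control 1 was highest and control 2 lowest, so the midkine values lay wholly within the control range. The group values were 1842 ± 140 and 1883 ± 87.2. The log2 difference was 0.03 ± 0.137 (SE), close to the median of all genes, which was −0.004, and it was −0.0019 without midkine 5.

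**Figure D1:**
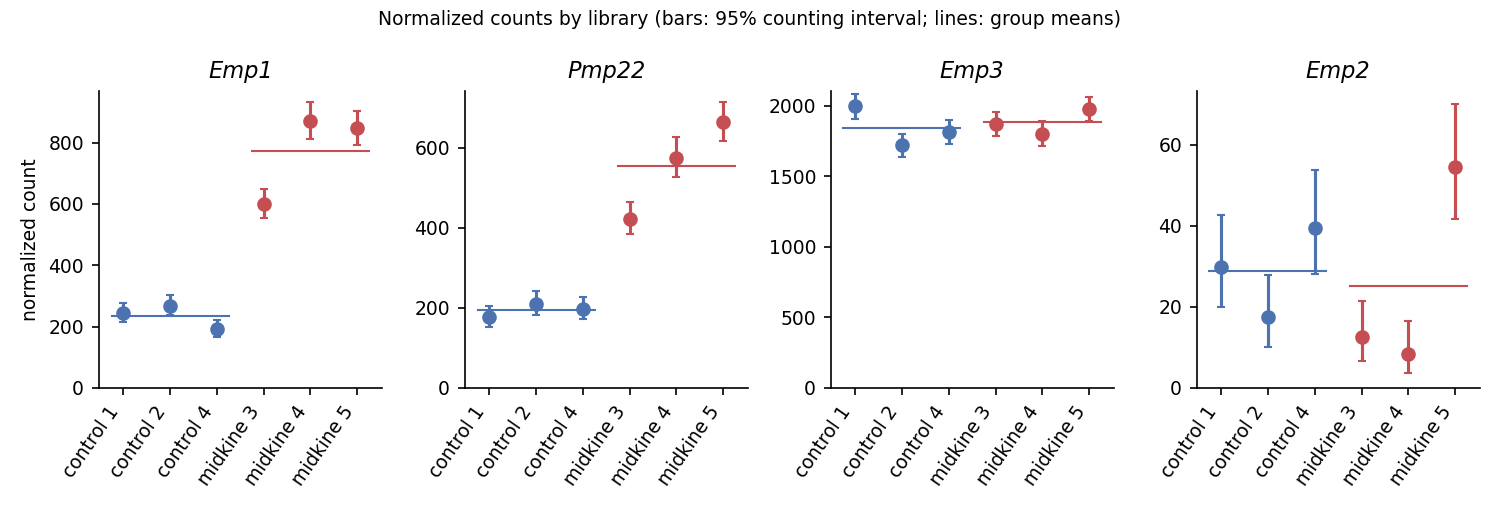
Normalized counts (y axis, from 0) of Emp1, Pmp22, Emp3 and their relative Emp2 in the 3 control (blue) and 3 midkine (red) libraries, with bars for the 95% Poisson counting interval and lines for group means. Emp1 and Pmp22 lie at 600 to 871 and 423 to 665 with midkine, above all controls, while the Emp3 groups overlap and Emp2 is highest in midkine 5.

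Depth did not limit these values. Emp1 rested on 194 to 262 reads in the controls and 621 to 934 with midkine, Pmp22 on 172 to 206 and 437 to 733, and Emp3 on 1681 to 2176 in any library. The 95% Poisson intervals, which cover counting error only, ran from 236 to 302 normalized counts for the highest Emp1 control and from 554 to 649 for the lowest Emp1 midkine library. For Pmp22 the corresponding intervals ran from 183 to 241 and from 384 to 464. Libraries of 1 group differed by more than counting: the coefficient of variation of Emp1 was 16.8% in control and 19.4% in midkine libraries, where counting alone gives 6.57 and 3.55%. For Pmp22 it was 8.89% in control, near the 7.20% from counting, and 22.1% with midkine, against 4.18%. Emp3 was the steadiest, at 7.62 and 4.63%, against 2.34 and 2.27%.

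Because the kit counts each transcript once, levels of different genes can be set side by side as CPM, each gene's share of a library's reads on a fixed scale, without a length correction. Emp3 had 295 ± 26.3 CPM in control and 295 ± 11.0 in midkine libraries, which put it at a median rank of 501 and 530 among all genes of a library. Emp1 followed with 37.7 ± 6.59 and 121 ± 21.0, moving from a median rank of 4420 to 1440. Pmp22 had 31.2 ± 2.47 and 86.6 ± 16.8, from rank 5066 to 2142. The order Emp3, Emp1, Pmp22 held by group mean in both groups. The ranges of Emp1 and Pmp22 over libraries overlapped in each group. Within a library, Emp1 had 1.42, 1.51 and 1.27 reads per Pmp22 read in midkine 3, 4 and 5, above 1 in each, and 1.39, 1.27 and 0.965 in controls 1, 2 and 4, where the order was not the same in every library.

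The ratio of 2 genes within a library does not depend on how libraries are scaled. Emp3 had 8.14, 6.42 and 9.47 reads per Emp1 read in controls 1, 2 and 4, and 3.12, 2.07 and 2.33 in midkine 3, 4 and 5. Per Pmp22 read it had 11.3, 8.16 and 9.14 in the controls and 4.43, 3.13 and 2.97 with midkine. Both ratios were lower in every midkine library than in any control. This, like the shares below, follows from the values above, which were known when the genes were grouped, so it is a description. The ratio of Emp1 to Pmp22 overlapped between the groups, at 1.21 ± 0.219 and 1.40 ± 0.121. Of the reads of the 3 genes together, Emp3 took 81.0 ± 2.46% in control and 58.9 ± 5.02% in midkine libraries, Emp1 10.3 ± 1.77% and 23.9 ± 3.07%, and Pmp22 8.63 ± 1.19% and 17.1 ± 2.30%. The summed level of the 3 was 2272 ± 125 normalized counts in control and 3210 ± 299 with midkine.

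**Figure D2:**
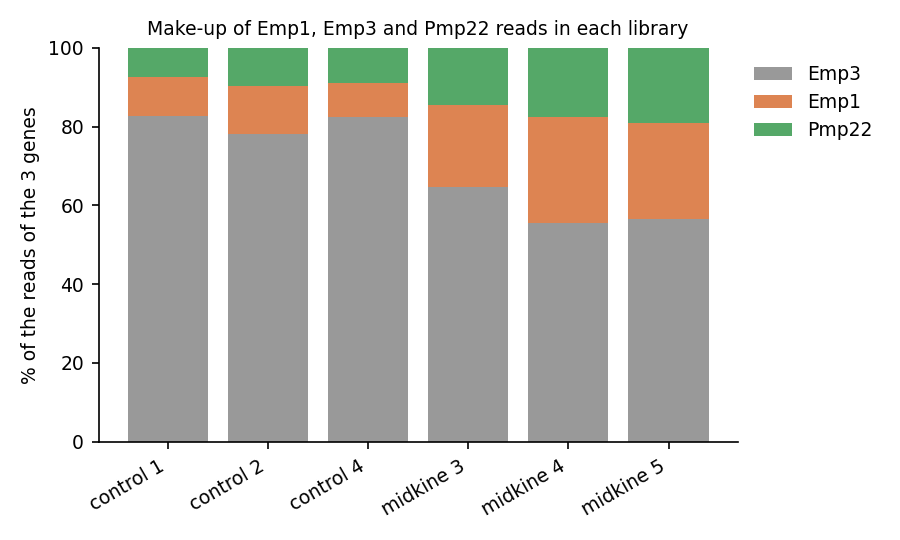
Share (y axis, %) of Emp3, Emp1 and Pmp22 in the reads of the 3 genes, 1 bar per library. Emp3 takes 78.2 to 82.6% of each control bar and 55.5 to 64.7% of each midkine bar.

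Across the rest of the family, levels were mostly low, and differences between the groups went both ways. A list of 50 symbols (2 of them, Lhfp and Lhfpl6, names of 1 gene) covered Emp2, the claudins, the calcium channel gamma subunits, the Lhfpl proteins and others. Values were found for 13, of which 10 passed the filter on low values. With all 6 libraries, 0 of the 10 passed with limma (2 at an unadjusted p under 0.05, against 19.7% of all genes). With edgeR 0 passed, and with DESeq2 0, which gave no adjusted p to Cldn12, Gsg1 and Cldn34c1. The median log2 difference of the 10 was 0.12, against −0.004 for all genes. Without midkine 5, limma called 1 of 10 higher and 1 lower, against 9.92% and 8.52% of all genes.

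Lhfpl2, a tetraspan protein of the Lhfpl group, was the relative with the most RNA after Emp3 in the controls (61.5 ± 7.89 CPM). It had 322, 417 and 414 normalized counts in controls 1, 2 and 4 and 600, 684 and 487 with midkine, so its groups did not overlap (log2 difference 0.61, limma adjusted p = 0.149). It passed without midkine 5 (log2 difference 0.75, limma adjusted p = 0.000556). Cldnd1, a claudin domain protein, had 216, 294 and 216 against 193, 174 and 90.8 (log2 difference −0.72, limma adjusted p = 0.235), with the lowest value in midkine 5, and a difference of −0.38 without that library (limma adjusted p = 0.081). Cldn12 and Cldn15, both claudins, overlapped between the groups (limma adjusted p = 0.327 and 0.460). Cldn12 had at most 23.6 normalized counts in any library, in midkine 5. Its fitted log2 difference of 1.65 therefore rested on few reads.

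Emp2, the remaining epithelial membrane protein, was scarce and moved with midkine 5. It had 29.7, 17.4 and 39.4 in the controls, 12.6 and 8.44 in midkine 3 and 4, and 54.5 in midkine 5. With all 6 libraries the log2 difference was −0.56 ± 0.635 (SE, limma adjusted p = 0.634). Without midkine 5 it was −1.33 ± 0.361 (limma adjusted p = 0.0158), a call that rests on 8 and 13 reads in the midkine libraries. Emp2 was named after its values were seen, being outside the 4 genes of the list with the smallest p.

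**Figure D3:**
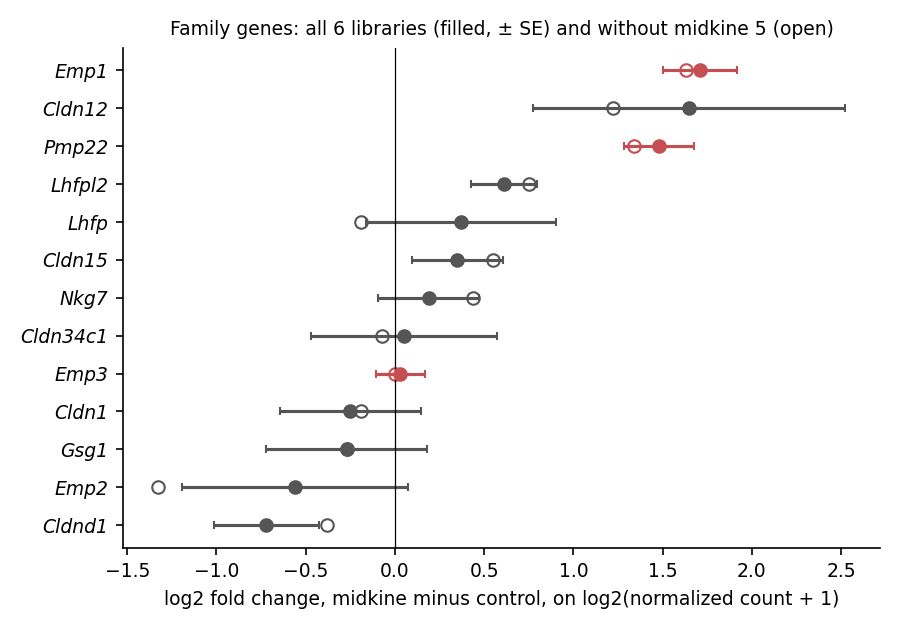
Log2 difference, midkine minus control (x axis), of Emp1, Emp3 and Pmp22 (red) and the 10 other family genes past the filter (grey), with all 6 libraries (filled, ± SE) and without midkine 5 (open). Emp1 (1.71) and Pmp22 (1.48) lie apart from Emp3 (0.03), and Emp2 moves from −0.56 to −1.33 without midkine 5.

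Among genes whose proteins are described as partners or helpers of this family, calls depended on midkine 5. Of 19 on the list, 16 were tested and 12 (75.0%) had a positive log2 difference, some of them near 0, against 49.6% of all genes. With all 6 libraries 0 passed with limma (6 at an unadjusted p under 0.05, all higher), 0 with edgeR and 2 with DESeq2, Cd44 and Htatip2, both higher. Over all genes, 10.4% had such an unadjusted p and were higher, and DESeq2 called 3.97% higher. The median log2 difference of the 16 was 0.53, and 0.34 without midkine 5. In that fit limma called 7 of the 16 higher and 0 lower, against 9.92% and 8.52% of all genes. Cd44, the hyaluronan receptor, had 1816, 1582 and 1855 in the controls and 2450, 3058 and 2484 with midkine (log2 difference 0.60, limma adjusted p = 0.115 with all libraries and 0.000638 without midkine 5). Htatip2, a partner described for EMP3, had 159, 109 and 163 against 243, 217 and 296 (limma adjusted p = 0.118, and 0.00683 without midkine 5). For both genes every midkine library lay above every control. Cav2, a caveolin, had 56.2 ± 9.56 and 103 ± 38.0 (limma adjusted p = 0.178). Its log2 difference was 0.82, and 0.54 without midkine 5 (limma adjusted p = 0.0646). Tgfbr2, a subunit of the TGF-beta receptor, had 124 ± 21.1 and 189 ± 46.2, with midkine 5 (137) inside the control range (log2 difference 0.58, limma adjusted p = 0.227). Without midkine 5 it was called higher (log2 difference 0.80, limma adjusted p = 0.00157). P2rx7, the channel this family has been linked to, named here after its values were seen, had 130, 144 and 120 in the controls and 166, 198 and 568 in midkine 3, 4 and 5. Its high mean with midkine came from midkine 5: the log2 difference was 1.01 with that library (limma adjusted p = 0.232) and 0.47 without it (limma adjusted p = 0.0344).

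Of the other genes named growth arrest-specific, which share only that name with Pmp22, 7 of 9 were tested and they went both ways. With all 6 libraries 0 passed with limma (2 at an unadjusted p under 0.05), 0 with edgeR and 2 with DESeq2, both higher. Over all genes, 19.7% had such an unadjusted p, and DESeq2 called 3.97% higher. Gas6, the ligand of the receptors Mertk and Axl, had 165, 206 and 135 in the controls and 240, 329 and 601 with midkine (log2 difference 1.12, limma adjusted p = 0.140). Gas2l1, a cytoskeletal linker, had 122 ± 19.9 and 229 ± 70.8 (limma adjusted p = 0.132). Without midkine 5 both were called higher, with log2 differences of 0.75 for Gas6 (limma adjusted p = 0.00479) and 0.64 for Gas2l1 (limma adjusted p = 0.00888). Gas5, a noncoding RNA that hosts small nucleolar RNAs, had 2706 ± 131 and 2185 ± 234 (log2 difference −0.31, limma adjusted p = 0.275) and was the 1 gene of the list called lower without midkine 5 (limma adjusted p = 0.00955). Gas2 had 17.2 ± 2.33 and 11.0 ± 1.18 (limma adjusted p = 0.301). Without midkine 5, limma called 9.92% of all genes higher and 8.52% lower. The median log2 difference of the list was −0.13 with all 6 libraries.

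Of 12 transcription factors and cofactors described for Pmp22 in Schwann cells, 6 were tested, and Sox10 had no values among the gene symbols. With limma 0 passed with all 6 libraries (2 at an unadjusted p under 0.05), with edgeR 0 and with DESeq2 2, 1 higher and 1 lower. Over all genes, 19.7% had such an unadjusted p, and DESeq2 called 3.97% higher and 1.95% lower. Egr2, the zinc finger factor that drives myelin genes, had 23.6, 36.8 and 19.7 normalized counts in the controls and 78.3, 105 and 38.1 with midkine. Midkine 5 lay just above control 2, so the groups did not overlap (log2 difference 1.36, limma adjusted p = 0.140). Without midkine 5 the difference was 1.77 (limma adjusted p = 0.000193). Tead1, a partner of the cofactor YAP, went the other way, with 18.5, 22.5 and 22.7 against 7.73, 6.33 and 4.54 (log2 difference −1.64, limma adjusted p = 0.0794), and passed without midkine 5 (limma adjusted p = 0.00764). Nab1 and Nab2, corepressors of EGR factors, overlapped between the groups (limma adjusted p = 0.406 and 0.410).

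The genes most like each member over the 6 libraries were found by the root mean square distance between log2 profiles, each centred on its own mean, among 8645 genes with a mean of at least 50. Because they were chosen for this likeness, their values are a description. Nearest to Emp1 were Tnfsf12 (distance 0.157), Lrp12 (0.185), Rcan1 (0.212), Dusp1 (0.212) and Fabp4 (0.212), where the median gene lay at 0.895. Tnfsf12 encodes the cytokine TWEAK, Rcan1 an inhibitor of calcineurin, Dusp1 a phosphatase of MAP kinases and Fabp4 a fatty acid carrier of macrophages and fat cells. Fabp4 had 367, 565 and 260 in the controls and 1116, 1320 and 1320 with midkine. Like Emp1, it was lowest in control 4.

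Nearest to Pmp22 were Plk2 (0.115), Metrnl (0.123), Pld3 (0.130), Rilpl2 (0.134) and Acp5 (0.156), against a median of 0.780. Plk2 is a polo-like kinase, Metrnl a secreted factor, Pld3 a lysosomal nuclease and Acp5 the acid phosphatase that marks osteoclasts. Acp5 had 109, 107 and 119 in the controls and 250, 316 and 483 with midkine. Pmp22 and Emp1 were themselves 0.208 apart, so that 2 genes lay closer to Emp1 than Pmp22 did and 13 lay closer to Pmp22 than Emp1 did. Emp3 lay 0.871 from Emp1 and 0.758 from Pmp22, about as far as the median gene (0.895 and 0.780). Of the 8645 genes, 3929 lay closer to Emp1 and 3985 closer to Pmp22 than Emp3 did. Few genes varied less, and 8586 and 8497 lay closer to Emp3 than Emp1 and Pmp22 did. Its own nearest genes were Ero1l (0.0203), Arhgap4 (0.0211), Cuta (0.0249), Slc25a17 (0.0339) and Rps3a1 (0.0353), all with log2 differences between −0.02 and 0.07.

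**Figure D4:**
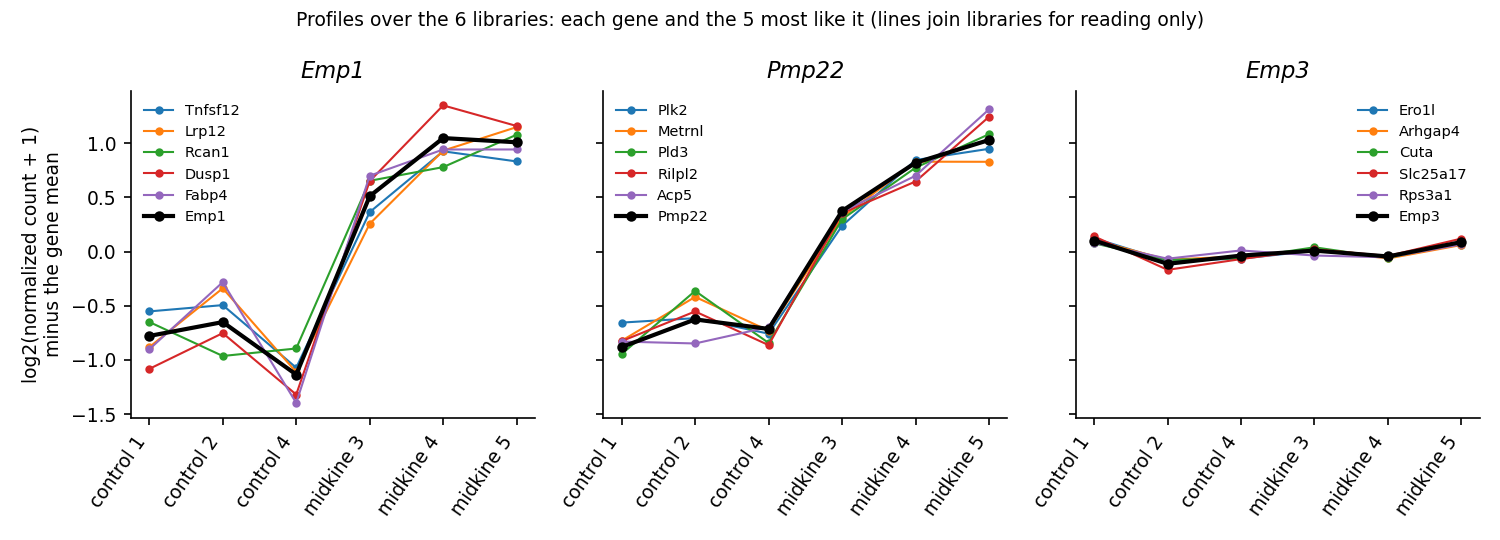
Centred log2 profiles (y axis) over the 6 libraries of Emp1, Pmp22 and Emp3 (black) and the 5 genes most like each (colours); lines join libraries only to ease reading. The Emp1 and Pmp22 panels step up from the controls to midkine, and the Emp3 panel is flat.

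The cultures hold several cell types, and in such bulk samples more cells of a type and more RNA per cell cannot be told apart. All 12 markers of monocytes and macrophages had values. Their summed level was 55967 to 65976 normalized counts in the controls and 88100 to 112705 with midkine, 1.70-fold higher by the means. Lyz2 had 29266 ± 131 and 55181 ± 21082, and Apoe 16856 ± 4569 and 26750 ± 9365. These 2 genes made up most of the sum, and so weigh most in the ratios to it below. Of the 12, 0 passed with limma, 0 with edgeR and 8 with DESeq2, all higher, against 3.97% of all genes with DESeq2. The groups did not overlap for 8, all higher, against 15.5% of all genes in that direction. Without midkine 5, limma called 11 of the 12 higher and 0 lower, against 9.92% and 8.52% of all genes. The largest log2 difference of the 12 was 1.10 (Cd14). Per 1000 reads of these markers, Emp1 had 4.26, 4.06 and 3.42 reads in controls 1, 2 and 4 and 6.81, 8.34 and 7.52 with midkine. Pmp22 had 3.07, 3.19 and 3.54 against 4.80, 5.51 and 5.90. For both genes the groups did not overlap on that scale, at 1.93 and 1.65 times the control mean. Both were chosen with their differences known, so these ratios are a description, and the part of these cells was not tested. Emp3 had 31.0 ± 4.47 and 18.7 ± 2.22 on that scale. Per 1000 reads of neutrophil markers, Emp1 and Pmp22 stood at 2.36 and 2.03 times the control mean. Against dendritic cell markers they stood at 3.73 and 3.22 times, and against stromal markers at 6.12 and 5.2 times. These ratios too are a description.

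With all 6 libraries, limma and edgeR called 0 markers of neutrophils, mast cells and basophils, megakaryocytes, B cells or dendritic cells. DESeq2 called 4, 2, 1 and 1, in that order, higher and 4 dendritic cell markers lower, against 3.97% and 1.95% of all genes. Without midkine 5, limma called 6 of 10 neutrophil markers, 3 of 3 of mast cells and basophils and 1 of 5 of megakaryocytes higher. It also called 4 of 4 of B cells higher, none of these lists lower, and 6 of 7 dendritic cell markers lower. Over all genes that fit called 9.92% higher and 8.52% lower. The 10 neutrophil markers summed to 123237 to 137026 in the controls and 176202 to 187977 with midkine, with a largest log2 difference of 1.32 (Camp). The 7 dendritic cell markers summed to 4793 to 5475 and 3973 to 5052. Most of that sum was H2-Aa, with 3536 ± 361 and 3674 ± 612. For 5 of the 7, every midkine library lay below every control, against 15.3% of all genes. Markers of mast cells and basophils (3 of 4 with values) summed to 262 to 367 and 505 to 848, with a largest log2 difference of 1.26 (Prss34). The 5 megakaryocyte markers summed to 6417 to 7278 and 8669 to 12995, and the 4 B cell markers to 619 to 930 and 661 to 1391. The part of these cell types in the Emp1 and Pmp22 differences was not tested.

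Summed markers of stroma, 1 of the settings in which Emp1 and Pmp22 are known, were lower with midkine, and those of epithelia overlapped between the groups. Of 12 stromal markers, 11 had values and 9 were tested. They summed to 915 to 1533 in the controls and 519 to 838 with midkine. Of the 9, 0 passed with limma, 1 with edgeR and 3 with DESeq2, all lower. Over all genes, edgeR called 0.0295% lower and DESeq2 1.95%. Without midkine 5, limma called 6 of the 9 lower and 0 higher, against 8.52% and 9.92% of all genes. The median log2 difference of the 9 was then −1.10, against −0.74 with all 6 libraries. Tagln, an actin-binding protein of smooth muscle and fibroblasts, had 113 ± 23.0 and 16.0 ± 3.68 (edgeR adjusted p = 0.0462). It had the smallest p of the 9. The groups did not overlap for 3 of the 9, all lower, against 15.3% of all genes. Dcn was the 1 with a positive log2 difference (20.6 ± 9.63 and 31.2 ± 7.76). Sparc (504 ± 183 and 213 ± 52.7) and Acta2 (226 ± 52.7 and 176 ± 62.8, overlapping) weighed most in the sum. Of the Schwann cell markers, Sox10 and Cdh19 had no values among the gene symbols. Of 5 that were tested, 0 passed with limma, 0 with edgeR and 2 with DESeq2, L1cam lower and Egr2 (above) higher. Over all genes, DESeq2 called 1.95% lower and 3.97% higher. L1cam, an adhesion molecule of axons and Schwann cells, had 75.9, 72.6 and 70.0 in the controls and 42.5, 40.1 and 17.2 with midkine (log2 difference −1.21, limma adjusted p = 0.135). With midkine 5 left out, limma called Egr2 and Ncam1 higher and L1cam lower, against 9.92% and 8.52% of all genes. Ncam1, an adhesion molecule, had 106, 91.0 and 90.7 against 166, 173 and 90.8, with midkine 5 among the controls. Mbp, a myelin gene that blood cells also express, overlapped, with 565 to 623 in the controls and 552 to 580 with midkine. The epithelial keratins Krt5, Krt14, Krt8, Krt18 and Krt19 had no values, and the 2 remaining epithelial markers summed to 272 to 461 and 184 to 441. Endothelial markers, 6 of 8 with values, summed to 922 to 1104 and 800 to 1737, the highest in midkine 5. When midkine 5 was left out, limma called 1 epithelial marker lower, and 1 endothelial marker higher and 1 lower. The shares over all genes were again 9.92% higher and 8.52% lower. The only T and NK cell marker with values summed to at most 5.13 in any library.

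Under every one of 16 other settings Emp1 and Pmp22 stayed higher with midkine. Because their groups did not overlap, leaving out a library or changing the pseudocount, filter or library weights could not have reversed the sign. A change of scaling would have had to close gaps of 2.24 times for Emp1 and 2.01 times for Pmp22. The settings therefore show only how far the size of the difference moved. The log2 difference of Emp1 ranged from 1.57 (without control 4) to 1.88 (without midkine 3) and that of Pmp22 from 1.34 (without midkine 5) to 1.66 (without midkine 3). Emp3 ranged from −0.09 with quantile normalization to 0.09 without control 1, so the sign of its difference depended on the setting.

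**Figure D5:**
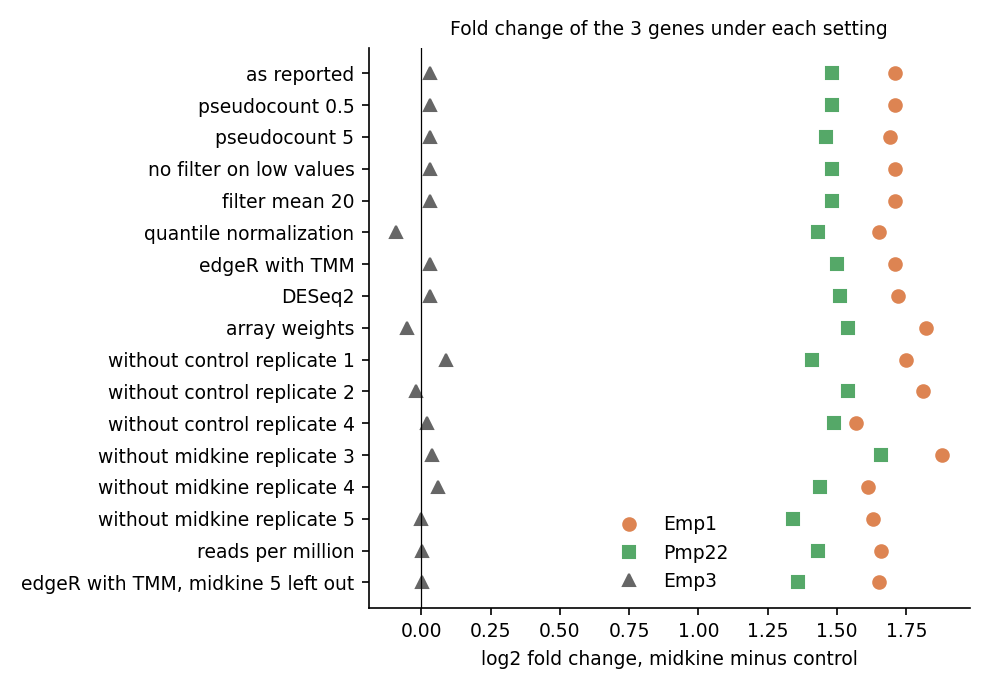
Log2 difference, midkine minus control (x axis), of Emp1 (circles), Pmp22 (squares) and Emp3 (triangles) as reported and under each of 16 other settings (y axis). Emp1 stays between 1.57 and 1.88, Pmp22 between 1.34 and 1.66 and Emp3 between −0.09 and 0.09.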

How the data were processed

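Libraries (6) were prepared with Lexogen's QuantSeq forward kit, per the labels' protocols, which reads transcripts near their 3′ ends. The authors deposited a signal per gene symbol: read counts divided by 1 size factor per library. Reads were handled with TopHat2 2.0.10, SAMtools 0.1.19, Bowtie 1.0.0, DESeq2, HTSeq and FastQC 0.11.0, on GRCm38 (mm10), per the submitters' processing notes. Strand setting, gene filter and annotation release were not given in the sources used here. Every value divided by the library's step gave a whole number of reads (100% within 0.01 reads). A floor of 3 reads was at most 5.01e-05% of a library. There were 0 further sample columns.

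All genes with a mean of at least 5 were fitted with limma 3.58.1 under R 4.3.3, with a variance trend, as log2(normalized count + 1), two-sided, with Benjamini-Hochberg adjustment over 13543 genes. Differences on this scale understate the change of low genes. Recovered reads were fitted with edgeR 4.0.16 and DESeq2 1.42.0, which had adjusted p-values for 11549 genes. The tests were tried on simulated counts with the same spread in every library. None was made to stand apart like midkine 5, so the trial does not cover that case. The members and all gene lists were chosen with earlier results of these data known. Of each list, up to 4 genes with the smallest p were named, and others after their values were seen. Some markers are not reported here. The 5 genes nearest to each member were named by profile distance, leaving out Gm, Rik and mitochondrial genes. Other settings changed the pseudocount, filter, scaling, weights and libraries. CPM computed from the recovered reads, and edgeR without midkine 5, were added after seeing the data. Figures were drawn with matplotlib 3.10.9.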

Additional observations from a re-analysis of the deposited data

How the results depend on the processing

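The number of genes past the limma threshold was 0 with all 6 libraries and 10 with a pseudocount of 5, 9 with no filter on low values, 16 with quantile normalization, 10 with edgeR, 684 with DESeq2, 5076 with array weights, 12 on CPM, and 2508 with edgeR leaving out midkine 5. Leaving out 1 library at a time it ranged from 0 to 2497, the highest without midkine 5. Of the other family genes, 4 passed with array weights (Lhfpl2 and Cldn15 higher, Emp2 and Cldnd1 lower) and 2 with edgeR leaving out midkine 5 (Lhfpl2 higher, Emp2 lower). Leaving out 1 library at a time, 0 to 2 passed. The log2 difference of Emp3 was −0.09 with quantile normalization, a move larger than its spread between replicates. In the 16 settings tried it was above 0 in 12 and below 0 in 4. Those of Emp1 and Pmp22 moved by less than that spread in each of the 16 settings. Depth limits Emp2 and the relatives under the filter, of which Cacng7 had 14 reads in all. No paired analysis was possible because control and midkine libraries share only 1 replicate number in the labels.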
